A study of Homo sapiens with 4 samples.

Results

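Serum response factor (SRF) and 9 genes of the actin cytoskeleton, ACTB, ACTG1, MYL9, TAGLN, CNN2, TPM1, TPM2, VCL and FLNA, were examined for their mRNA level in cells transfected with siRNA against the kinesin KIF26B. These 10 genes were taken by name as SRF and actomyosin genes, and all 10 were found among the 58735 gene identifiers of the files. RNA sequencing was carried out on HCT116, an established human colorectal cancer cell line, grown in McCoy 5A medium with 10% FBS. Cells were collected 48 h after transfection with control siRNA (2 libraries) or with siRNA against KIF26B (2 libraries). The study depleted KIF26B in HCT116 cells with 2 independent siRNAs. Which siRNA sequence went into each library is not given in the sources used here. The KIF26B siRNA libraries, called replicates below as in their labels, may therefore differ in siRNA sequence, which was not tested. The labels also do not say whether the libraries of a group came from separate cultures. Every P value thus measures only the spread between these 4 libraries. The comparison asks whether the lower mRNA of YAP target genes in the KIF26B siRNA libraries extends to the targets of SRF.

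SRF is a transcription factor that binds the CArG box, a short A/T-rich DNA element, in the promoters of many actin, myosin and actin-binding genes. Its cofactors MRTFA and MRTFB are held in the cytoplasm by monomeric actin and enter the nucleus when actin is polymerized, so that actin genes are controlled by the state of actin itself. A second group of SRF targets, the immediate early genes, is switched on through ternary complex factors such as ELK1. YAP and its paralog TAZ act through TEAD factors and respond to many of the same changes in cell shape and tension.

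The CArG boxes found close to the transcription start are shown because SRF binds this element, though a match of letters is no evidence of binding. Promoter windows of 300 bases, from 250 before to 50 after the start, were available from RefSeq (GRCh38.p14) for 7 of the 10 genes and were searched on both strands. ACTB, MYL9 and TAGLN had no window. A CArG box was found in 4 of the 7 genes, SRF, ACTG1, CNN2 and FLNA, against 1.60% of 27305 genes with a window (438 genes). Since the genes were taken by name as SRF and actomyosin genes, this share is no independent evidence. No box was found in the windows of TPM1, TPM2 and VCL, which says only that these letters are not in those windows. TPM4, a tropomyosin outside the 10 genes whose box is printed for the results further on, also had one. Each line gives 30 bases, 5′ to 3′ on the strand of the gene, with the 10 bases of each CArG box in capitals.

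SRF: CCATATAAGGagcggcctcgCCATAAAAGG

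ACTG1: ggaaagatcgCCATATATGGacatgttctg

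CNN2: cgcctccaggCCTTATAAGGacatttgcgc

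FLNA: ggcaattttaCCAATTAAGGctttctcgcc

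TPM4: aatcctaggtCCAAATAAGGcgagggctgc

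The SRF stretch lies at chr6:43171239-43171268 (plus strand) directly before the transcription start and holds 2 boxes, whose first bases are at −30 and −10. The ACTG1 stretch lies at chr17:81512874-81512903 (minus strand), with the box starting at −94. The CNN2 stretch lies at chr19:1026509-1026538 (plus strand), with the box starting at −89. The FLNA stretch lies at chrX:154374709-154374738 (minus strand), with the box starting at −94 as in ACTG1. The TPM4 stretch lies at chr19:16067355-16067384 (plus strand), with the box starting at −173. All 5 stretches lie before the start and are therefore outside the transcribed sequence.

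The deposited values are FPKM, fragments scaled to the length of the gene and to the size of the library, so that levels can be compared between genes of different length. Between 19199139 and 24859693 reads per library were recovered from the steps of these values, and mitochondrial genes took 6.82% and 6.84% of them in the control libraries and 9.58% and 7.69% in the KIF26B siRNA libraries. The part of this difference in the results was not tested. Differences between groups were computed on log2(FPKM + 1), which understates the change of low genes, and were tested with limma in 14523 genes whose mean over the libraries reached 1 FPKM, with P values adjusted by the Benjamini–Hochberg method over all of them. No gene passed an adjusted p of 0.05 in either direction, the smallest adjusted p being 0.242. An unadjusted P below 0.05 was reached by 8.68% of the genes on the lower side and by 7.74% on the higher side. The median gap between the 2 libraries of a group was 0.073 in the controls and 0.28 in the KIF26B siRNA libraries on the log2 scale. With 2 against 2 libraries the exact permutation test of a single gene cannot give a P under 0.333.

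KIF26B itself, a kinesin-family protein encoded at chr1:245154985-245709432, was close to the limit of detection. Its level was 0.110 and 0.205 FPKM in control replicates 1 and 2, and 0.140 and 0.0307 FPKM in the libraries labelled KIF26B siRNA replicates 1 and 2. These values rest on 31, 73, 43 and 8 reads. KIF26B siRNA replicate 2 was below both controls, whereas the library labelled KIF26B siRNA replicate 1 lay between them, so the reduction of the target is not seen in that library. KIF26B was below the minimum level for testing. Without that minimum its log2 difference was −0.094 (limma, adjusted p = 0.775).

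The cells carried epithelial mRNA and little mRNA of other actin-rich cell types. EPCAM lay between 77.0 and 98.6 FPKM and KRT19 between 842 and 951 FPKM over the 4 libraries, but KRT20 and CDH17, markers of differentiated intestinal cells, were at most at 0.507 and 0.142 FPKM. Of the 7 epithelial markers 5 were tested, with a median log2 difference of −0.33. CDH1, KRT8 and KRT18 were lower in both KIF26B siRNA libraries than in both controls (−0.33, −0.43 and −0.51), KRT19 was higher in both (0.14) and EPCAM overlapped (0.082). The part of these differences in the results was not tested. Among 7 fibroblast markers the summed level was 7.19 to 7.40 FPKM in the controls and 4.93 to 8.82 FPKM after KIF26B siRNA, nearly all of it COL1A1, and 2, 2, 2 and 3 of them were listed at 0 in control replicates 1 and 2 and KIF26B siRNA replicates 1 and 2. Among 6 smooth muscle markers the summed level was 2.75 to 2.89 FPKM in the controls and 2.45 to 2.82 FPKM after KIF26B siRNA, with ACTG2 at or near 0. The labels name only HCT116 cells, so no fibroblasts or smooth muscle cells are known to have been present. The part of these marker values in the results was not tested. In bulk RNA, fewer cells of a type and less RNA per cell cannot be told apart.

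In the control libraries the 10 genes were spread over a wide range of abundance. The cytoplasmic actins led, with ACTG1 at 2469 ± 31.1 FPKM (mean ± SD, n = 2, as for all levels that follow) and ACTB at 546 ± 4.43 FPKM. They were followed by the actin crosslinker FLNA at 165 ± 0.579, TPM2 at 67.9 ± 0.722, CNN2 at 56.0 ± 0.581 and VCL at 39.6 ± 0.458 FPKM. MYL9 at 16.6 ± 0.384 and SRF at 16.1 ± 0.959 FPKM were neighbours that did not differ beyond their spread, and the same held for TPM1 at 2.15 ± 0.00829 and TAGLN at 1.84 ± 0.372 FPKM. TAGLN and MYL9, which are abundant in smooth muscle and fibroblasts, were thus minor transcripts in HCT116 cells. In the KIF26B siRNA libraries the order of the 6 most abundant genes was the same, while SRF stood above MYL9 and TAGLN above TPM1.

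**Figure D1:**
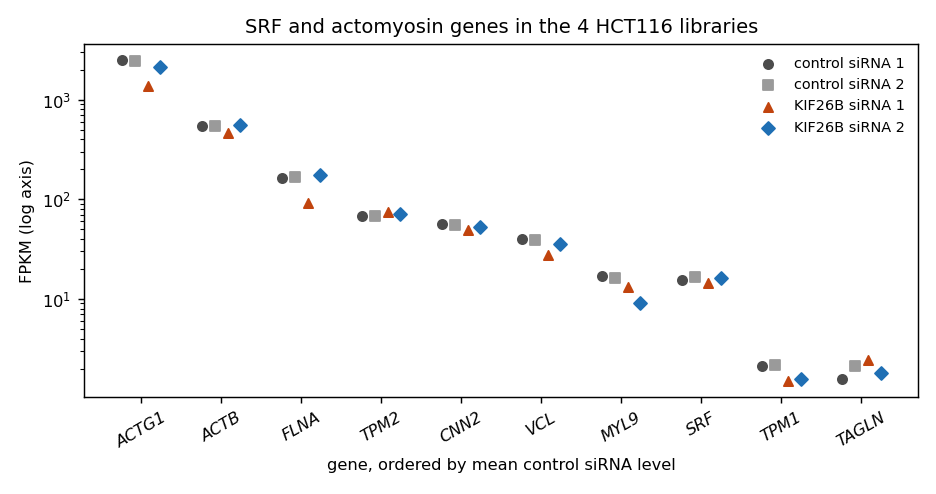
Level of the 10 genes in each library, in FPKM on a log axis, with 1 point for each of the 2 control siRNA and 2 KIF26B siRNA libraries. ACTG1 lies near 2469 FPKM and TAGLN near 1.84 FPKM in the controls, and the control points nearly coincide while the KIF26B siRNA points are spread.

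SRF mRNA did not differ detectably. It was at 15.4 and 16.8 FPKM in control replicates 1 and 2 and at 14.6 and 16.0 FPKM in KIF26B siRNA replicates 1 and 2. The groups overlapped, KIF26B siRNA replicate 2 lying between the controls. The log2 difference was −0.067 (SE 0.12, 95% interval −0.41 to 0.28, limma, adjusted p = 0.809). That unadjusted interval holds the differences compatible with these libraries and is no limit of detection. No gene passed the adjusted threshold, whatever the size of its difference.

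The cytoplasmic actins, the monomers of the actin filaments of every non-muscle cell, gave unequal values. ACTG1, γ-actin, was at 2491 and 2447 FPKM in the controls and at 1368 and 2135 FPKM in KIF26B siRNA replicates 1 and 2. Both KIF26B siRNA libraries lay below both controls, replicate 1 far more than replicate 2, at 55.4% and 86.5% of the control mean. ACTB, β-actin, was at 543 and 549 FPKM in the controls and at 457 and 559 FPKM in KIF26B siRNA replicates 1 and 2. Here the groups overlapped, since replicate 1 was the lowest and replicate 2 the highest of the 4 libraries. The log2 difference was −0.53 for ACTG1 (SE 0.25, 95% interval −1.23 to 0.17, limma, adjusted p = 0.382). For ACTB it was −0.11 (SE 0.15, adjusted p = 0.734), and it turned to 0.034 without KIF26B siRNA replicate 1.

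The makeup of cytoplasmic actin mRNA also differed between libraries. ACTG1 made up 82.1% and 81.7% of the summed FPKM of both genes in the controls and 75.0% and 79.2% in KIF26B siRNA replicates 1 and 2. The summed level was 3033 and 2995 FPKM in the controls, and 1825 and 2693 FPKM after KIF26B siRNA. Both the share and the sum were lower in each KIF26B siRNA library than in each control. The 11 listed ACTB pseudogenes held 14 to 34 reads per library in all and the 21 ACTG1 pseudogenes 63 to 138 reads, against at least 34343 reads of ACTB and 87495 reads of ACTG1. How reads shared between both actins and their pseudogenes were counted is not stated, so the split between them is uncertain.

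MYL9, a regulatory light chain of non-muscle and smooth muscle myosin II whose phosphorylation switches on contraction, had the mean difference farthest from 0 among the 10 genes when all libraries were used. It was at 16.9 and 16.4 FPKM in the controls and at 13.3 and 9.10 FPKM in KIF26B siRNA replicates 1 and 2, resting on 937, 1140, 800 and 464 reads. Each KIF26B siRNA value lay under each control value, and for this gene replicate 2 was the lower one, at 54.7% of the control mean. Its log2 difference was −0.56 (SE 0.21, 95% interval −1.13 to 0.019, limma, adjusted p = 0.310). Without KIF26B siRNA replicate 1 it was −0.80 with an adjusted p of 0.0470, where the lone library is assumed to vary like the controls and 1117 genes on the lower and 1137 on the higher side also passed. Without KIF26B siRNA replicate 2 it was −0.31, and ACTG1 (−0.85), FLNA (−0.84) and VCL (−0.52) were then farther from 0. Over all alternatives the adjusted p for MYL9 ran from 0.0470 to 0.9999.

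The tropomyosins, rods that lie along the actin filament and control which proteins may bind it, were not alike in direction. TPM1 was at 2.14 and 2.16 FPKM in the controls and at 1.49 and 1.56 FPKM in KIF26B siRNA replicates 1 and 2. The KIF26B siRNA libraries were lower by nearly the same amount, to 70.9% of the control mean, and TPM1 was the only one of the 10 genes below an unadjusted P of 0.05 (log2 difference −0.32, SE 0.11, 95% interval −0.62 to −0.019, limma, adjusted p = 0.291). With the replicate number as a block, or with a variance trend, TPM1 was not below an unadjusted P of 0.05 and MYL9 was. TPM2 was at 67.4 and 68.4 FPKM in the controls and at 74.5 and 71.5 FPKM in KIF26B siRNA replicates 1 and 2. It was the only one of the 10 genes with both KIF26B siRNA libraries above both controls, at 107% of the control mean, and its log2 difference was 0.10 (SE 0.11, 95% interval −0.20 to 0.41, limma, adjusted p = 0.670). Without strand information, TPM1 reads cannot be told from those of an overlapping antisense RNA, TPM1-AS, whereas no gene overlaps TPM2 or SRF. The same limit holds for ACTB, ACTG1, MYL9, CNN2, FLNA and TPM4, which overlap genes on the opposite strand that are not protein-coding.

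TAGLN, transgelin, and CNN2, calponin 2, are related actin-binding proteins that stabilize filaments. TAGLN was at 1.57 and 2.10 FPKM in the controls and at 2.45 and 1.81 FPKM in KIF26B siRNA replicates 1 and 2. The groups overlapped, and the log2 difference of 0.14 (SE 0.18, limma, adjusted p = 0.719) turned to −0.0083 without KIF26B siRNA replicate 1. TAGLN overlaps PCSK7 on the opposite strand, whose reads cannot be told apart without strand. CNN2 was at 56.4 and 55.6 FPKM in the controls and at 49.3 and 52.1 FPKM in KIF26B siRNA replicates 1 and 2. The values after KIF26B siRNA were both lower, but only to 90.6% of the control mean, with a log2 difference of −0.14 (SE 0.11, 95% interval −0.45 to 0.17, limma, adjusted p = 0.567).

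VCL, vinculin, which couples actin to integrins and cadherins at sites under tension, was at 39.9 and 39.3 FPKM in the controls and at 27.3 and 35.2 FPKM in KIF26B siRNA replicates 1 and 2. The KIF26B siRNA values were both lower, replicate 1 more so, and the log2 difference was −0.34 (SE 0.17, 95% interval −0.80 to 0.12, limma, adjusted p = 0.390). VCL overlaps AP3M1 on the opposite strand. FLNA, filamin A, which crosslinks filaments into orthogonal networks, was at 165 and 166 FPKM in the controls and at 92.2 and 173 FPKM in KIF26B siRNA replicates 1 and 2. The groups overlapped because replicate 1 was by far the lowest and replicate 2 the highest of the 4 libraries. The log2 difference of −0.38 (SE 0.34, 95% interval −1.32 to 0.55, limma, adjusted p = 0.605) had the widest interval of the 10 genes, and it turned to 0.068 without KIF26B siRNA replicate 1.

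**Figure D2:**
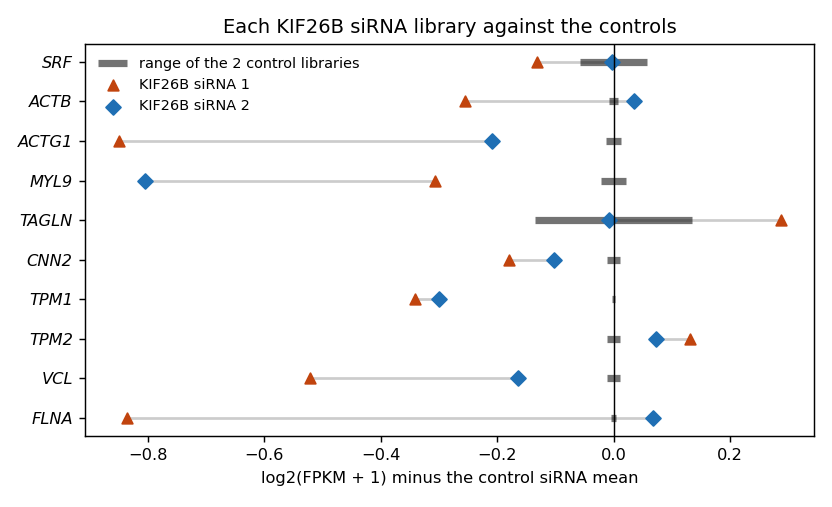
Each KIF26B siRNA library against the mean of the 2 controls, in log2(FPKM + 1), for the 10 genes, with a triangle for replicate 1, a diamond for replicate 2 and a black bar for the range of the controls. ACTG1 replicate 1 lies at −0.85 and MYL9 replicate 2 at −0.80, and the replicates of FLNA lie on opposite sides of 0.

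Among the 10 genes, 8 had a negative and 2 (TAGLN and TPM2) a positive log2 difference, where 51.6% of all genes tested were negative. None passed the adjusted threshold (background 0%). At an unadjusted P below 0.05, 1 was lower and 0 were higher, against 8.68% and 7.74% of all genes tested, so the lower count was near the background. None passed the thresholds used in the study, an unadjusted P below 0.05 with a log2 difference beyond 1, which 0.606% of all genes met on the lower side and 0.813% on the higher side. In 5 genes, ACTG1, MYL9, CNN2, TPM1 and VCL, both KIF26B siRNA values were under both controls, against 27.8% of all genes tested, and in 1 gene, TPM2, both were above, against 24.9%. The median log2 difference was −0.23, with −0.013 over all genes tested. It differed between the replicates, being −0.28 in KIF26B siRNA replicate 1 and −0.055 in replicate 2 against the control mean. Leaving out KIF26B siRNA replicate 2 brought 6 genes (ACTB, ACTG1, MYL9, TPM1, VCL and FLNA) under an unadjusted P of 0.05 on the lower side, where 22.7% of all genes tested were then lower. Without KIF26B siRNA replicate 1 the count was 2 (MYL9 and TPM1), near the 23.6% of all genes then lower. Leaving out control replicate 1 or 2 brought none, against 1.71% and 1.62% of all genes.

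The spread within the KIF26B siRNA group exceeded that within the controls for all 10 genes. The median gap between the 2 controls was 0.022 and that between the 2 KIF26B siRNA libraries 0.29 on the log2 scale. KIF26B siRNA replicate 1 was the lower library in 7 of the 10 genes, and the summed level of the 10 genes was 3398 and 3362 FPKM in the controls, against 2100.2 and 3054 FPKM in KIF26B siRNA replicates 1 and 2. Most of this sum is ACTG1, and MYL9, TAGLN and TPM2 were lower in replicate 2. Whether the KIF26B siRNA libraries differed because they received different siRNA sequences was not tested.

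The relatives and partners of these proteins also lay mostly on the lower side. Of 24 genes listed (actins, myosin chains, calponins, tropomyosins, filamins and adhesion proteins), 19 were tested. Of these 15 had a negative and 4 a positive log2 difference, with a median of −0.29, where 51.6% of all genes tested were negative. At an unadjusted P below 0.05, 7 were lower and 2 (TPM4 and ACTA2) higher, against 8.68% and 7.74% of all genes tested. ACTA2 reached the minimum for testing only through the KIF26B siRNA libraries, so its count as higher is favoured by that minimum. None of the 19 passed the adjusted threshold. The 7 were CNN3, MYL12A, MYH9, MYH10, ACTN1, ACTN4 and PXN, of which all but CNN3 and MYL12A were named after their values were seen.

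TPM4, a tropomyosin of stress fibers with a CArG box in its promoter window, stood apart. It was at 17.8 and 17.5 FPKM in the controls and at 41.9 and 63.6 FPKM in KIF26B siRNA replicates 1 and 2. The KIF26B siRNA values were far above both controls, with a log2 difference of 1.501 (SE 0.23, 95% interval 0.85 to 2.15, limma, adjusted p = 0.242). It was the only gene on the list beyond the study's thresholds. The makeup of tropomyosin mRNA therefore differed, TPM4 taking 12.2% and 12.1% of the summed FPKM of TPM1 to TPM4 in the controls and 27.0% and 33.4% in KIF26B siRNA replicates 1 and 2. TPM3 took 39.9% and 38.7% in the controls and 24.0% and 28.2% in the KIF26B siRNA libraries. The level of TPM3 was 58.0 and 55.6 FPKM in the controls and 37.2 and 53.7 FPKM in KIF26B siRNA replicates 1 and 2. Its log2 difference was −0.34 (limma, adjusted p = 0.481), and replicate 2 was at 94.5% of the control mean. The summed level of TPM1 to TPM4 was 145 and 144 FPKM in the controls, and 155 and 190.3 FPKM after KIF26B siRNA. The lower level of TPM1, and that of TPM3 mainly in replicate 1, thus stood beside a higher total.

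**Figure D3:**
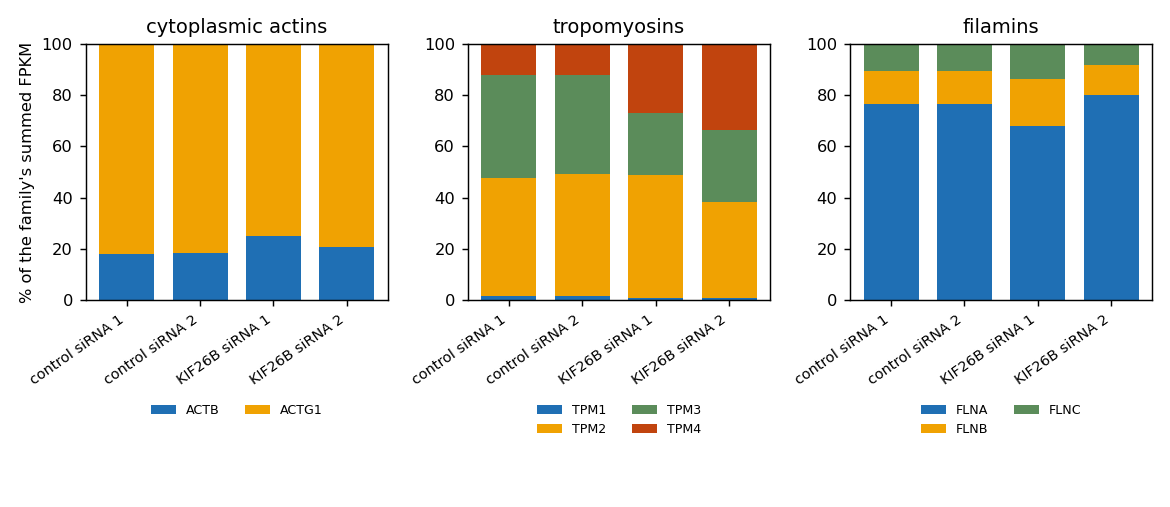
Makeup of gene families by library, as the share in percent of the summed FPKM of the family, for the cytoplasmic actins, the tropomyosins and the filamins, with 1 bar for each of the 4 libraries. TPM4 takes 12.1% to 12.2% of tropomyosin mRNA in the controls and 27.0% to 33.4% in the KIF26B siRNA libraries.

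Other genes of the list followed the members of their own family in part. CNN3, calponin 3, was at 71.7 and 73.1 FPKM in the controls and at 49.9 and 43.7 FPKM in KIF26B siRNA replicates 1 and 2, below both controls in each (log2 difference −0.62, SE 0.13, limma, adjusted p = 0.242). CNN3 took 55.9% and 56.8% of calponin mRNA in the controls and 50.2% and 45.6% in KIF26B siRNA replicates 1 and 2, nearly all of the rest being CNN2. The MYL9 paralogs MYL12A and MYL12B, which form most of the regulatory light chain in these cells, had log2 differences of −0.40 (limma, adjusted p = 0.272) and −0.28 (adjusted p = 0.321). The summed level of the 3 light chains was 298 and 297 FPKM in the controls, and 239 and 236 FPKM after KIF26B siRNA, and MYL9 made up 3.85% to 5.69% of it.

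The non-muscle myosin heavy chains differed in direction. MYH9 and MYH10, chosen after their values were seen, had log2 differences of −0.40 and −0.42 (limma, adjusted p = 0.265 and 0.258). MYH14 was at 9.67 and 10.5 FPKM in the controls and at 13.5 and 25.0 FPKM in KIF26B siRNA replicates 1 and 2, both above the controls but far apart (log2 difference 0.81, limma, adjusted p = 0.325). ACTA2, smooth muscle α-actin, was at 0.633 and 0.599 FPKM in the controls and at 2.25 and 1.34 FPKM in KIF26B siRNA replicates 1 and 2. It was below 1 FPKM in both controls and reached the minimum for testing only through the KIF26B siRNA libraries, so its place among the higher genes is favoured by that minimum. ACTA2 overlaps FAS and STAMBPL1 on the opposite strand, so its reads cannot be separated from theirs without strand. Filamins other than FLNA differed less between replicates, and FLNA made up 76.5% and 76.4% of filamin mRNA in the controls and 68.1% and 80.3% in KIF26B siRNA replicates 1 and 2.

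The cofactors of SRF were measured at low to moderate levels. Of 7 genes listed, 6 were tested, 5 with a negative and 1 with a positive log2 difference (median −0.20). None reached an unadjusted P of 0.05, against 8.68% of all genes tested on the lower and 7.74% on the higher side. MRTFA was at 6.47 and 6.10 FPKM in the controls and at 6.36 and 5.38 FPKM in KIF26B siRNA replicates 1 and 2, so the groups overlapped (log2 difference −0.088, limma, adjusted p = 0.766). MRTFB was at 5.29 and 4.69 FPKM in the controls and at 4.55 and 3.20 FPKM in KIF26B siRNA replicates 1 and 2. Both KIF26B siRNA values were below both controls, with a log2 difference of −0.31 (limma, adjusted p = 0.465). The ternary complex factors gave log2 differences of −0.33 for ELK3, −0.25 for ELK1 and 0.24 for ELK4. MYOCD, the cofactor of heart and smooth muscle, was listed at 0 in all 4 libraries.

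Further MRTF-SRF targets also lay mostly on the lower side. Of 8 listed and tested, 7 had a negative and 1 a positive log2 difference (median −0.17), where 51.6% of all genes tested were negative. FHL1, a LIM-domain protein of the cytoskeleton, was the only one at an unadjusted P below 0.05 (log2 difference −0.32, limma, adjusted p = 0.300). This count of 1 in 8 was near the 8.68% of all genes tested that were lower at that threshold. TGFB1I1 reached the minimum for testing only through the control libraries. The promoter windows of 4 of these 8 genes held a CArG box, against 1.60% of all genes with a window.

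The immediate early SRF targets were not alike. Of 10 listed, 7 were tested, 6 negative and 1 positive (median −0.31). In either direction 0 reached an unadjusted P of 0.05, against 8.68% of all genes tested on the lower and 7.74% on the higher side. EGR1, a zinc-finger factor induced by growth factors, was at 74.1 and 78.6 FPKM in the controls and at 79.3 and 18.5 FPKM in KIF26B siRNA replicates 1 and 2. The low value was confined to KIF26B siRNA replicate 2, and replicate 1 was above both controls (log2 difference −0.97, SE 0.73, 95% interval −2.99 to 1.06, limma). FOSB was at 0.991 and 0.832 FPKM in the controls and at 1.35 and 2.16 FPKM in KIF26B siRNA replicates 1 and 2. It, too, reached the minimum for testing only through the KIF26B siRNA libraries.

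The YAP targets had a lower median than the 10 SRF and actomyosin genes. Of 22 listed, 16 were tested, of which 14 had a negative and 2 a positive log2 difference. Their median was −0.34, with −0.23 for the 10 SRF and actomyosin genes and −0.013 over all genes tested. A median near that of the YAP targets was also seen in the epithelial markers (−0.33), immediate early SRF targets (−0.31) and actomyosin relatives (−0.29). It was −0.20 for the SRF cofactors and −0.17 for the further MRTF-SRF targets. The YAP target list was put together with earlier results of these libraries known, so its direction is no independent evidence. At an unadjusted P below 0.05, 6 of 16 were lower and 1 was higher, against 1 and 0 of the 10 SRF and actomyosin genes. Over all genes tested the shares were 8.68% lower and 7.74% higher. In 12 of 16 both KIF26B siRNA values were under both controls, against 5 of 10 and 27.8% of all genes tested. The medians by library were −0.39 and −0.48 for the YAP targets in KIF26B siRNA replicates 1 and 2, and −0.28 and −0.055 for the SRF and actomyosin genes. The difference between both lists was not tested.

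The YAP targets with the largest differences went beyond any of the 10 genes. CCN2, a matricellular protein that is a standard YAP readout and can also be controlled by SRF, was at 5.21 and 5.18 FPKM in the controls and at 1.02 and 1.04 FPKM in KIF26B siRNA replicates 1 and 2. The KIF26B siRNA libraries lay close together and far below the controls (log2 difference −1.61, SE 0.11, limma, adjusted p = 0.242). AMOTL2, an angiomotin that binds both actin and YAP, was at 20.1 and 21.2 FPKM in the controls and at 7.64 and 9.06 FPKM in KIF26B siRNA replicates 1 and 2 (log2 difference −1.21, SE 0.14, adjusted p = 0.242). CCN1 had a log2 difference of −0.75 (adjusted p = 0.272), with KIF26B siRNA replicate 1 the lower library, as in ACTG1, VCL and FLNA. MYOF went the other way, at 55.3 and 55.5 FPKM in the controls and 99.3 and 78.3 FPKM in KIF26B siRNA replicates 1 and 2 (log2 difference 0.66, adjusted p = 0.248).

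**Figure D4:**
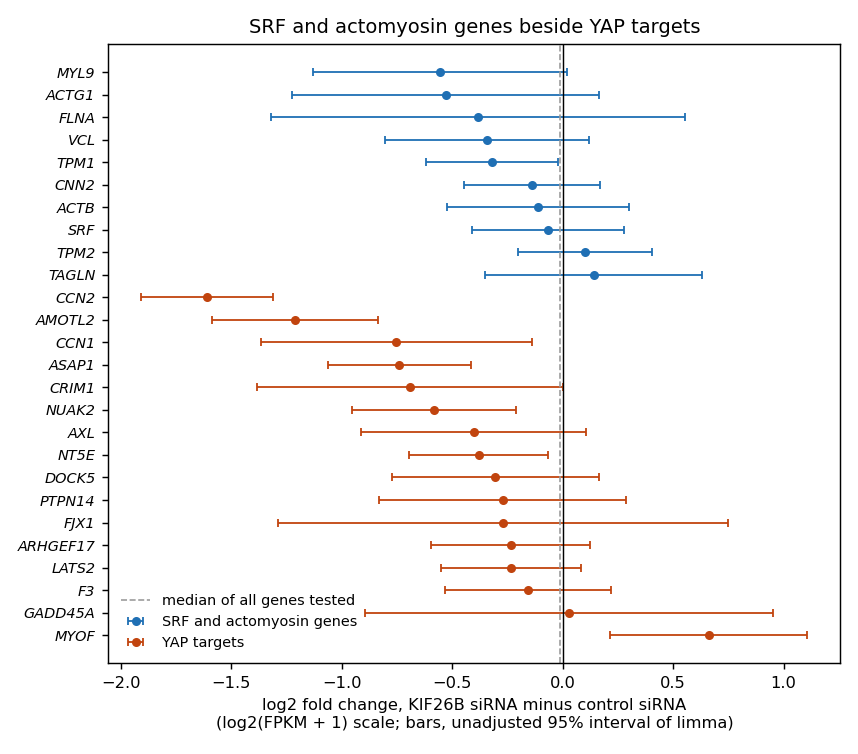
Log2 fold change (KIF26B siRNA minus control siRNA, on log2(FPKM + 1)) of the 10 SRF and actomyosin genes and of the 16 tested YAP targets, with the unadjusted 95% interval of limma as bars and the median of all genes tested as a dashed line. TPM1 is the only one of the 10 genes whose interval leaves out 0, and CCN2 at −1.61 and AMOTL2 at −1.21 lie below all 10.

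The promoter windows of both groups of genes were also searched for a TEAD motif. The 6-base motif GGAATG, or its reverse complement CATTCC, which is part of the TEAD binding sequence, was found in 9 of the 16 YAP targets with a window and in 1 of 7 SRF and actomyosin genes, VCL, against 16.7% of all genes with a window. It was also found in 10 of 23 actomyosin relatives and partners and in 4 of 8 further MRTF-SRF targets. A CArG box was found in 0 of those 16 YAP targets and in 4 of the 7. The 4 genes with a box had log2 differences of −0.067 (SRF), −0.53 (ACTG1), −0.14 (CNN2) and −0.38 (FLNA), and the 3 without had −0.32 (TPM1), 0.10 (TPM2) and −0.34 (VCL), so the values of both sets overlapped. TPM4, with a box, had 1.501. The letters searched overlapped each other in 13 windows of all genes, and a match is no evidence of binding.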

How the data were processed

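RNA sequencing of 2 control siRNA and 2 KIF26B siRNA libraries of HCT116 cells was used, grouped by the sample labels. The authors deposited FPKM values, 1 per gene and library. Per the labels' processing notes, HISAT2 2.0.5, featureCounts 1.5.0-p3 and hg38 were used, whereas the study's methods name hg19. The files hold no coordinates, so this was not settled. Whether counting used the strand is not given in the sources used here. Gene symbols came from GENCODE for GRCh37 (56513 of 58735 identifiers). Coordinates and promoter windows came from RefSeq, GRCh38.p14.

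Differences were tested with limma 3.58.1 (R 4.3.3) on log2(FPKM + 1) for 14523 genes whose mean reached 1 FPKM, with empirical Bayes moderation, no covariate and Benjamini–Hochberg adjustment. P values are two-sided. The 2 residual degrees of freedom were joined by a prior of 2.00. The functions were tested on simulated data. All other steps used Python 3.11.15 with pandas 2.3.3 and numpy 2.4.6.

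Whole reads were recovered from the FPKM steps. Of the values under 50 reads in single-exon genes, 92.6% to 93.0% came out whole within 0.01 of a read. Median-of-ratios factors of the deposited values lay between 1.0067 and 1.0108, so the values behaved as already scaled in that way. Intervals cover the spread between libraries.

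The 10 genes and all gene lists were chosen with earlier results of these data known, and no list was tested as a set. The results of 1 further list are not reported here. Named genes were the 10 genes, KIF26B, the YAP targets where a value was needed, MRTFA and MRTFB, the 4 tested genes of each other list with the largest absolute log2 difference, the 3 genes nearest to SRF across libraries, and pseudogenes and paralogs of the actins, MYL9 and tropomyosins. Other genes are named as chosen after their values were seen. Same-numbered replicates did not deviate together (correlation −0.003), so the numbers were not taken as pairs.

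Alternatives were a replicate block, a pseudocount of 0.1, no minimum level, at least 1 FPKM in every library, median-of-ratios scaling, a variance trend and leaving out each library. Scaling by total recovered reads and limma-voom on the recovered reads were added after the data were seen.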

Additional observations from a re-analysis of the deposited data

How the results depend on the processing

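With all 4 libraries, the 10 genes kept the direction of their log2 difference with no adjusted call in all 80 values over 8 alternatives, and the smallest adjusted p was 0.212 (TPM1, limma-voom on recovered reads). The replicate block, another minimum level and the variance trend leave these log2 differences unchanged by construction. Only another pseudocount, another scaling or limma-voom could have turned a direction. Limma-voom made 0 adjusted calls over all genes. Directions turned only without KIF26B siRNA replicate 1, to 0.034 for ACTB, −0.0083 for TAGLN and 0.068 for FLNA (without KIF26B siRNA replicate 2 they were −0.26, 0.29 and −0.84). The count of the 10 genes lower at an unadjusted P below 0.05 was 1, and 2 with at least 1 FPKM in every library, 2 with limma-voom and 0 to 6 when a library was left out. With the replicate block the count was also 1, but the gene was MYL9 and not TPM1, and likewise with a variance trend. The block, which joins samples that share only a number, gave adjusted p of 0.419 for MYL9 and 0.493 for TPM1.

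Scaling by total reads moved the median of all genes from −0.013 to −0.050 and put 8 of the 10 genes lower without overlap and 0 higher, so TPM2 then overlapped. The share of all genes without overlap was not computed for this scaling, so the count of 8 has no background. It changed the calls at an unadjusted P below 0.05 over all genes to 1499 lower and 930 higher, from 1261 and 1124. Leaving out a library gave 5 to 8 lower and 1 to 3 higher without overlap. The share of all genes without overlap was not computed for these settings either, so these counts have no background. With a library left out, the median of the 10 genes ran from −0.28 to −0.055. The YAP target median was −0.27 without a minimum level and −0.48 to −0.35 with a library left out. The cause of these shifts was not tested.

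Over all genes, calls at an unadjusted P below 0.05 were 2186 lower and 2192 higher without a minimum level, 861 and 864 with the block, and 237 to 3424 and 281 to 3317 with a library left out. Past the study's thresholds they were 88 and 118, then 203 and 217 with a pseudocount of 0.1, 52 and 69 with at least 1 FPKM in every library, 204 and 194 with limma-voom, and 132 to 230 and 155 to 333 with a library left out. Depth limits KIF26B, with 8 to 73 reads, and TAGLN, with 121 to 205 reads.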

Other observations

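The keratins of simple epithelia, which form the other main filament system of these cells, were lower in part. KRT8 was at 485 and 482 FPKM in the controls and at 369 and 350.1 FPKM in KIF26B siRNA replicates 1 and 2 (log2 difference −0.43, limma, adjusted p = 0.254). KRT18, its partner in the filament, had a log2 difference of −0.51 (limma, adjusted p = 0.242), and both libraries of the KIF26B siRNA group lay below both controls for each of these genes. KRT19 lay the other way, at 842 and 862 FPKM in the controls and at 921 and 951 FPKM in KIF26B siRNA replicates 1 and 2. None of these passed the adjusted threshold.

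The 3 genes whose deviations over the 4 libraries were nearest to those of SRF were LSR, GOLGB1 and RPS2P5, at Euclidean distances of 0.0188, 0.0219 and 0.0295 on the log2 scale. None of them is an SRF or actomyosin gene of the lists used here, and likeness over 4 libraries is a description only.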
